A study of Mus musculus with 12 samples.

Results

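The insulin-like growth factor (IGF) system was followed in HL-1 cells through 10 of the 23184 gene symbols of the deposited expression table: the IGF binding proteins Igfbp2, Igfbp3, Igfbp4, Igfbp5, Igfbp6 and Igfbp7, the ligand Igf1, and the receptors Igf1r, Igf2r and Insr. The genes were taken by symbol, and the family itself was chosen on measured values, namely the low Igfbp5 and Igfbp2 levels in the Wdr62 knockdown against the control. That comparison is therefore a description for all 10 genes, and so is every comparison of Igfbp5 and Igfbp2, since each reuses CON or KD values that chose the family. Igfbp5 had a mean of 488 ± 221 TPM (transcript number corrected for transcript length and scaled to the same total in each library; SD, n = 4) in the control, 0.882 ± 0.392 TPM in the knockdown and 10.1 ± 4.72 TPM after re-expression of WDR62. Igfbp2 was near 0 in both the knockdown and the re-expression cells, Igfbp7 was higher in the knockdown, and the receptor levels of the groups overlapped.

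IGF binding proteins are secreted proteins that bind IGF1 and IGF2 in the blood and around cells, and they can hold the ligands away from their receptor or deliver them to it. IGF1 receptor and insulin receptor are tyrosine kinases that signal through insulin receptor substrates, PI3 kinase and AKT to growth, survival and metabolism. The IGF2 receptor, also the cation-independent mannose 6-phosphate receptor, takes IGF2 to lysosomes and has no kinase. In heart muscle, IGF1 signalling is known for physiological growth and protection of the myocyte.

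HL-1 cells are an established mouse line of atrial origin that the labels call a cardiac muscle line, and all groups were grown in DMEM with 10% fetal bovine serum and penicillin-streptomycin. Control cells (CON, 4 libraries) received viruses made with the pCDH and lentiCRISPRv2 vectors. Knockdown cells (KD, 4 libraries) received virus for a CRISPR guide RNA against Wdr62, which encodes a spindle-pole and centrosomal scaffold protein. Re-expression cells (RE, 4 libraries) were KD cells that in addition received virus for flag-tagged wild-type WDR62 in pCDH. Only CON and RE are described as carrying pCDH. The labels do not say whether KD cells were a clone or a pool, or whether a group's libraries are separate cultures. The p-values therefore reflect only how these libraries vary, which may be technical. The treatment labels count upwards over the KD libraries (from Cas9) and over the RE libraries (from WDR62), and groups were taken from the titles.

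Wdr62 stood at 7.45, 6.61, 6.50 and 3.38 TPM in CON, at 1.40, 0.944, 1.37 and 0.881 TPM in KD, and at 1.47, 0.772, 0.826 and 1.99 TPM in RE. All 4 KD libraries were below the CON libraries, and the RE libraries overlapped KD. The labels do not give the species or codons of the construct, so its transcripts may be missing from the mouse Wdr62 value. Each library listed 14060 to 14733 genes above 0. Of 14 atrial muscle markers, 10 had a mean below 1 TPM, and Myl7, Actn2 and Sln were listed at 0 in every library, whereas Tnnt2 (18.9 TPM) and Nkx2-5 (11.9 TPM) were present. So 4 of these 14 markers reached a mean of 1 TPM. CON 4, RE 1 and RE 3 had the lowest levels of long transcripts, and CON 4 also stood apart from the other CON libraries in several IGF genes, and values without it stand beside the results that it moved most. The numbers of the CON libraries are those of the table's columns and are not tied to a sample by the labels.

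Igfbp2 and Igfbp5 are neighbours on mouse chromosome 1 (GRCm38), the plus-strand Igfbp2 at chr1:72824503-72852474 and the minus-strand Igfbp5 at chr1:72857932-72874884. They lie tail to tail with 5457 bases between them, so their promoters are at the outer ends and transcription runs inwards from both. Because both genes had low levels in KD, the 250 bases before their start sites are shown here as RefSeq gives them (GRCm38.p6), 5′ to 3′ on each gene's own strand. The stretch of Igfbp5 is chr1:72874866-72875115 (minus strand) and that of Igfbp2 is chr1:72824230-72824479 (plus strand). Of the 10 genes, 9 had an entry in that table, all but Insr, and of the 2 entries of Igfbp2 the more upstream is shown. Capitals mark the motif matches described after the sequences.

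Igfbp5: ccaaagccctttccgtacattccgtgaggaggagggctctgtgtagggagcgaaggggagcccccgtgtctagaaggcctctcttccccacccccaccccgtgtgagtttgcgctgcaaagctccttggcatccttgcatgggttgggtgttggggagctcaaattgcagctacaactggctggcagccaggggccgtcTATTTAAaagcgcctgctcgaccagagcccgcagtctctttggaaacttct

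Igfbp2: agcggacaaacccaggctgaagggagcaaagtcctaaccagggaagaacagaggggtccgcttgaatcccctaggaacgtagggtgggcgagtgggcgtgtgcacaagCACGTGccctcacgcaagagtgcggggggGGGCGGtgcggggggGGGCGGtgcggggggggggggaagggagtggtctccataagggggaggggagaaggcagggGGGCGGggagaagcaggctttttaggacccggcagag

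The motifs searched on both strands were the TATA box TATAAA, the variant TATTTAA (added after the Igfbp5 sequence was seen), the CCAAT box, the GC box GGGCGG, the E-box CAGCTG and the E-box CACGTG. The Igfbp5 stretch held 1 match, to TATTTAA, a motif found in 4.18% of the 32851 stretches of the same length in the table. The Igfbp2 stretch held 3 matches to GGGCGG, found in 32.7% of promoters, and 1 match to CACGTG, found in 6.02%. Igfbp2 had 67.2% G and C bases and Igfbp5 58.8%, against a median of 52.4% over all promoters. The 2 stretches shared none of these motifs. Elsewhere in the family, Igfbp4 and Igfbp6 held TATAAA (12.4% of promoters), and Igfbp7, Igf1r and Igf2r held GGGCGG. Igf2r also held 2 matches to CACGTG. The CCAAT box, found in 33.8% of promoters, had matches in Igfbp6 and Igf1, and Igf1 held CAGCTG (13.0% of promoters). A match describes letters in the sequence and not binding of a factor.

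Igfbp5 encodes a binding protein that attaches to extracellular matrix. It was at 565, 604, 624 and 158 TPM in the 4 CON libraries, at 1.14, 1.15, 0.317 and 0.917 TPM in the KD libraries, and at 5.10, 16.2, 11.0 and 8.03 TPM in the RE libraries. The 3 groups did not overlap: the lowest CON library was far above the highest RE library, and the lowest RE library was above the highest KD library. On the log2(TPM + 1) scale, which understates changes of low genes, KD was below CON by -7.86 ± 0.44 (SE, n = 4 per group). RE against KD was 2.48 ± 0.44 and RE against CON was -5.38 ± 0.44. The RE level was thus above KD and far below CON.

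Over the 22 alternatives run, the difference of RE from KD in Igfbp5 lay between 2.24 and 3.37. The limma call of this difference, which is no independent evidence, held in 13 of them and was lost without CON 1, CON 2, CON 3, KD 1, KD 2, KD 4, RE 1, RE 3 or RE 4 (adjusted p from 0.0501 to 0.118). Igfbp5 passed the filter of a mean of 1 TPM through CON and RE.

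Igfbp2 encodes a binding protein with an RGD sequence, by which it can bind integrins. It was at 10.6, 11.1, 15.9 and 81.3 TPM in CON, at 0, 0, 0 and 0.189 TPM in KD, and at 0.0966, 0.321, 0.299 and 0 TPM in RE. CON 4 was the highest CON library for Igfbp2 and the lowest for Igfbp5. All CON libraries were above the KD and RE libraries, which overlapped each other. KD was below CON by -4.33 ± 0.49 on the log2 scale, -3.67 without CON 4. RE against KD differed by 0.17 ± 0.49 (95% interval -0.91 to 1.24), and RE against CON by -4.17 ± 0.49. Igfbp2 passed the filter through CON alone. With a pseudocount of 0.1 in place of 1 the difference of KD from CON was -7.25.

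Igfbp3 (chr11:7206086-7213923, minus strand), the main IGF carrier of blood, was at 0.282, 0.444, 0.317 and 0.606 TPM in CON and listed at 0 in every KD and RE library. It lay under the filter and was not tested. Igfbp1, the other classic binding protein, was listed at 0 in all 12 libraries.

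**Figure D1:**
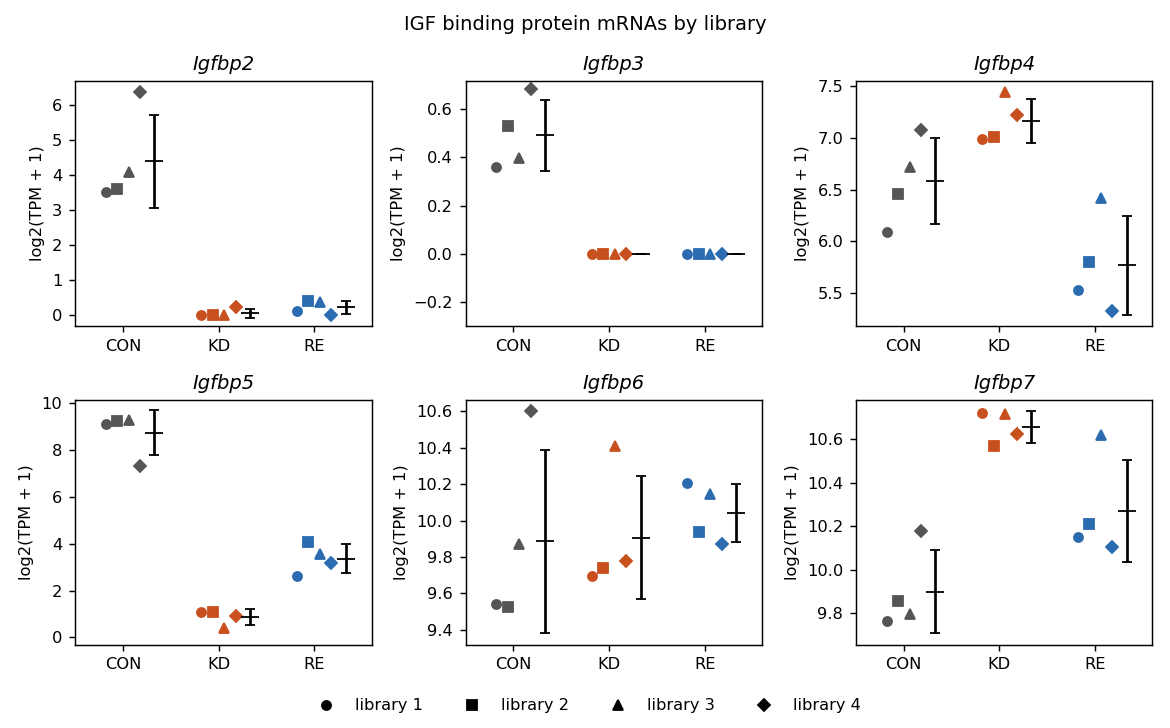
Levels of the 6 IGF binding proteins as log2(TPM + 1), 1 panel per gene. Points are libraries, and bars are the mean ± SD of 4 libraries. The shape gives the library number, which names a library and is not used here to pair libraries. Igfbp5 has 3 separate groups, with CON 4 at 158 TPM under the other CON libraries, Igfbp2 and Igfbp3 are near the floor in KD and RE, and Igfbp6 overlaps in all groups.

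The other binding proteins were abundant. Igfbp7 (chr5:77349240-77408041, minus strand), a matrix-associated protein with low IGF affinity, was at 867, 925, 888 and 1159 TPM in CON, at 1686, 1519, 1684 and 1580 TPM in KD, and at 1134, 1183, 1572 and 1099 TPM in RE. Every KD library was above every CON library, by 0.76 ± 0.14 on the log2 scale, and RE lay between them and overlapped both. RE against KD was -0.39 ± 0.14 (adjusted p = 0.138 in limma) and RE against CON was 0.37 ± 0.14 (adjusted p = 0.131 in limma), neither past the threshold of 0.05. RE against KD passed without CON 4 (-0.39, adjusted p = 0.0439), with quantile normalization (-0.54, adjusted p = 0.0286) and with a correction for transcript length (-0.54, adjusted p = 0.0334), and was -0.06 with median-of-ratios scaling. RE against CON passed without CON 4 (0.47, adjusted p = 0.0127) and without CON 4, RE 1 and RE 3 (0.35, adjusted p = 0.0249, all in limma). Over all 11774 tested genes, RE against KD called 123, and 2791 without CON 4. RE against CON called 745, and 6219 without CON 4. Over the alternatives run, the difference of KD from CON lay between 0.72 and 0.86. Igfbp7 shares 85 bases with Polr2b on the opposite strand, and Polr2b had a mean of 77.4 TPM.

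Igfbp4 (chr11:99041244-99054392, plus strand), known as an inhibitory binding protein that the protease PAPP-A cleaves, was at 67.1, 87.0, 104 and 134 TPM in CON, at 126, 127, 173 and 148 TPM in KD, and at 45.1, 54.7, 84.7 and 39.1 TPM in RE. KD overlapped CON only through CON 4. Every RE library was below every KD library, and the fall was -1.39 ± 0.25 (adjusted p = 0.0330 in limma, exact permutation p = 0.0286, the smallest that 4 against 4 libraries can give). RE against CON was -0.82 ± 0.25 (adjusted p = 0.0818 in limma), which passed without CON 4 (-0.65, adjusted p = 0.0406) and without RE 3 (-1.04, adjusted p = 0.0236). Without CON 4, RE against CON called 6219 of all tested genes. The fall from KD to RE was lost under median-of-ratios scaling (-1.07, adjusted p = 0.125), quantile normalization (-1.25, adjusted p = 0.0615) and a length correction (-0.96, adjusted p = 0.183). It was also lost without CON 2, CON 3, KD 1, KD 2, KD 4, RE 1 or RE 4, with adjusted p of 0.0556 to 0.129, and was called in 11 of 22 alternatives.

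Igfbp6 (chr15:102144362-102149511, plus strand), which prefers IGF2 as its ligand, was at 743, 736, 935 and 1554 TPM in CON, at 829, 852, 1361 and 878 TPM in KD, and at 1182, 979.6, 1131 and 937 TPM in RE. The groups overlapped. KD against CON was 0.02 ± 0.24, RE against KD was 0.13 ± 0.24 (adjusted p = 0.691 in limma) and RE against CON was 0.16 ± 0.24 (adjusted p = 0.639 in limma). Without CON 4 the differences from CON were 0.26 for KD and 0.40 for RE. Igfbp6 and Igfbp7 were thus the most abundant binding proteins, at percentiles 99.0 and 99.2 of the 11774 tested genes by mean TPM, against 91.1 for Igfbp5 and 26.1 for Igfbp2.

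As TPM is a level per transcript length, the 6 genes can be set side by side, with a limit. The libraries differed in their levels of long transcripts, and Igfbp5 has 6006 bases, Igfbp6 1112 and Igfbp7 1200. The part of that difference in the shares was not tested. The summed level of the 6 genes was 2568 ± 370 TPM in CON, 2741 ± 323 in KD and 2371 ± 308 in RE (SD, n = 4), which overlapped. Igfbp5 made up 25.1%, 25.5%, 24.3% and 5.12% of that sum in the CON libraries, 0.00986% to 0.0462% in KD and 0.216% to 0.723% in RE. Igfbp7 made up 34.6% to 39.1% in CON, 52.3% to 63.8% in KD and 47.9% to 56.2% in RE. In CON 1, CON 2 and CON 3 the largest shares were those of Igfbp5, Igfbp6 and Igfbp7, and in KD and RE those of Igfbp6 and Igfbp7.

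**Figure D2:**
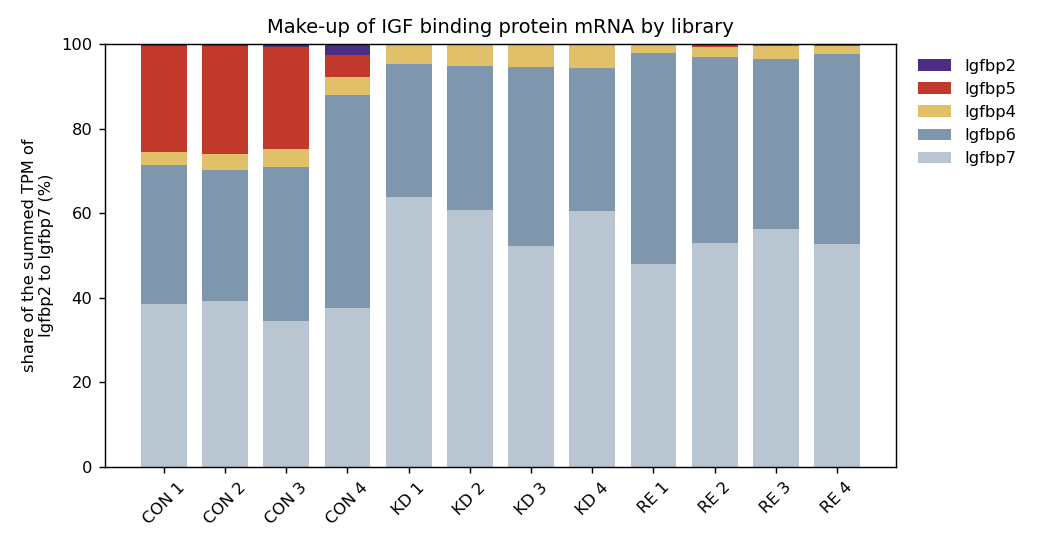
Share of each gene (%) in the summed TPM of the IGF binding proteins, 1 stacked bar per library, with Igfbp3 left out because it never exceeded 0.02%. Igfbp5 takes 24.3% to 25.5% in 3 CON libraries and 5.12% in CON 4, and is too thin to see in KD.

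Of the 8 tested genes, KD against CON held 1 called higher (Igfbp7) and 2 called lower (Igfbp5 and Igfbp2) at an adjusted p below 0.05. Over all tested genes 10.2% were called in that comparison, 6.6% higher and 3.61% lower, and as this comparison chose the family the count supports nothing. RE against KD held 1 called higher (Igfbp5, one of the genes that chose the family) and 1 lower (Igfbp4), where 1.04% of all genes were called, 0.187% higher and 0.858% lower. RE against CON held 2 called lower (Igfbp5 and Igfbp2, high in CON by the choice of the family), where 6.33% were called, 2.7% higher and 3.63% lower. The same genes, in the same directions, were those whose groups did not overlap. Groups did not overlap in KD against CON for 11.9% of all genes higher and 7.02% lower, in RE against KD for 3.47% and 10.8%, and in RE against CON for 4.46% and 4.76%. These comparisons share libraries, so a low KD level enters both of the comparisons with KD. The median of all genes was itself at -0.29 in RE against KD and -0.27 in RE against CON, and at 0.00 and 0.01 with median-of-ratios scaling. Relative to that median, RE against KD was 2.77 for Igfbp5 and -1.10 for Igfbp4.

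**Figure D3:**
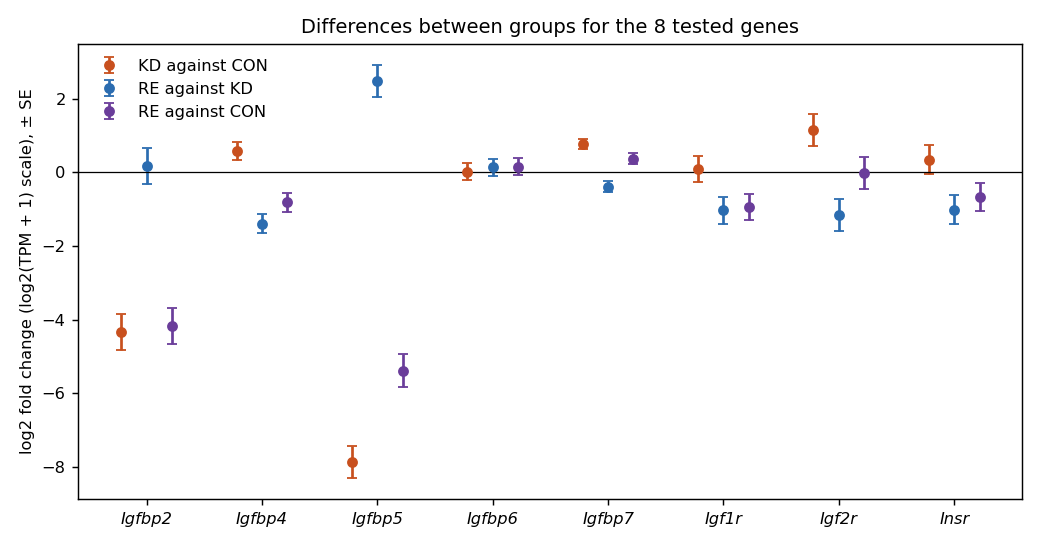
Differences of log2(TPM + 1) ± SE for the 8 tested genes in the 3 comparisons. Igfbp5 is at -7.86, 2.48 and -5.38 in KD against CON, RE against KD and RE against CON, while the 3 receptors are near -1 in RE against KD.

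The genes around Igfbp2 and Igfbp5 were looked at after these values were known. Within 500 kb of the pair, 7 other genes were in the table and 3 were tested. Xrcc5, a DNA end-joining subunit, was at 77.1 TPM in CON and 81.9 TPM in KD, a difference of 0.09 ± 0.20 (adjusted p = 0.876 in limma). Smarcal1, an annealing helicase, differed by 0.09 ± 0.16 (adjusted p = 0.833 in limma), and Rpl37a, a ribosomal protein gene with many near-identical copies, by 0.04 ± 0.57 (adjusted p = 0.986 in limma). The low KD levels of Igfbp2 and Igfbp5 were not seen in these 3 genes.

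Among the genes whose log2 levels followed Igfbp5 most closely over the 12 libraries were H19 (Pearson r = 0.994), Tead2 (0.985), Tap2 (0.973) and Pde5a (0.968). H19, an imprinted long noncoding RNA, had means of 79.4 TPM in CON, 3.15 in KD and 9.45 in RE. Tead2, a transcription factor of the Hippo pathway, had 20.6, 5.73 and 7.51 TPM in the same order. For Igfbp2 they were Sprr2h (0.993), Cldn34b1 (0.986), Dkk2 (0.982), Hoxb13 (0.976) and Wnt4 (0.975), and Wnt4, a secreted WNT ligand, had means of 10.1, 0.200 and 0.401 TPM. These correlations are a description over libraries of 3 groups and carry no test. Igfbp2 and Igfbp5 themselves had r = 0.85.

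Igf1r (chr7:67952827-68233668, plus strand), the receptor tyrosine kinase for IGF1 and IGF2, was at 15.9, 17.1, 15.5 and 5.99 TPM in CON, at 19.2, 19.7, 8.58 and 10.3 TPM in KD, and at 4.57, 8.60, 4.95 and 7.04 TPM in RE. Insr (chr8:3122061-3279617, minus strand), the insulin receptor, was at 12.4, 11.99, 11.0 and 3.71 TPM in CON, at 16.2, 17.2, 6.93 and 9.40 TPM in KD, and at 3.59, 7.83, 4.39 and 6.17 TPM in RE. Igf2r (chr17:12682406-12769664, minus strand) was at 24.1, 22.6, 23.8 and 6.55 TPM in CON, at 58.6, 55.6, 23.0 and 31.7 TPM in KD, and at 11.4, 27.7, 14.0 and 19.0 TPM in RE. In all 3 receptors CON 4 was the lowest CON library, KD 1 and KD 2 were the highest of all, and the groups overlapped.

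No receptor passed the threshold in a comparison with RE. RE against KD was -1.03 ± 0.36 for Igf1r (adjusted p = 0.133), -1.16 ± 0.43 for Igf2r (adjusted p = 0.145) and -1.01 ± 0.38 for Insr (adjusted p = 0.147, all in limma). At an unadjusted p below 0.05, 5 of the 8 tested genes were lower in RE than in KD, where 21.6% of all tested genes were. These were Igfbp4, Igfbp7 and the 3 receptors. The receptors moved together over the 12 libraries (r from 0.79 to 0.98), so they do not count as separate evidence. In RE against CON, 4 of the 8 were lower (Igfbp2, Igfbp5, Igfbp4 and Igf1r) and 1 higher (Igfbp7). Over all tested genes 20.2% were lower and 8.22% higher. Igfbp2 and Igfbp5 are high in CON by the choice of the family, so their part of this count supports nothing. Without CON 4, which enters RE against KD only through the shared spread, all 3 receptors passed (adjusted p = 0.0362, 0.0367 and 0.0377 in limma). That fit called 2791 of all 11774 tested genes in RE against KD, against 123 with CON 4 kept. RE against CON was -0.95 ± 0.36 for Igf1r and -0.66 ± 0.38 for Insr, and without CON 4 it was -1.27 (adjusted p = 0.00551) and -1.03 (adjusted p = 0.0165, both in limma). Over all tested genes, RE against CON called 745, and 6219 without CON 4. For Igf2r, RE against CON was -0.01 ± 0.43 (adjusted p = 0.985 in limma), and -0.44 without CON 4. KD against CON was 1.14 ± 0.43 for Igf2r, 0.09 ± 0.36 for Igf1r and 0.35 ± 0.38 for Insr. Without CON 4 it was 0.72 for Igf2r, and it changed sign to -0.24 for Igf1r and -0.014 for Insr.

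The receptor levels moved with a property of the libraries. The longest annotated transcripts of Igf1r, Insr and Igf2r have 11409, 9355 and 8887 bases, and the 2269 tested genes with transcripts of at least 5032 bases deviated together from their own means, with medians from -0.996 (RE 3) to 0.72 (CON 1) on the log2 scale. Over the 12 libraries that median had r = 0.96 with Igf1r, 0.94 with Insr and 0.76 with Igf2r, and r = -0.84 with Igfbp6, whose transcript has 1112 bases. For Igfbp5, with 6006 bases, r was 0.25, and for Igfbp2, with 1307 bases, it was 0.07. With levels corrected for the trend over transcript length, RE against KD was -0.09 for Igf1r, -0.14 for Insr and -0.30 for Igf2r, and RE against CON changed sign to 0.06, 0.25 and 0.87, with adjusted p = 0.794, 0.226 and 0.00209 in limma. KD against CON was 0.15, 0.39 and 1.18. The part of RNA quality or library preparation in these levels was not tested.

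**Figure D4:**
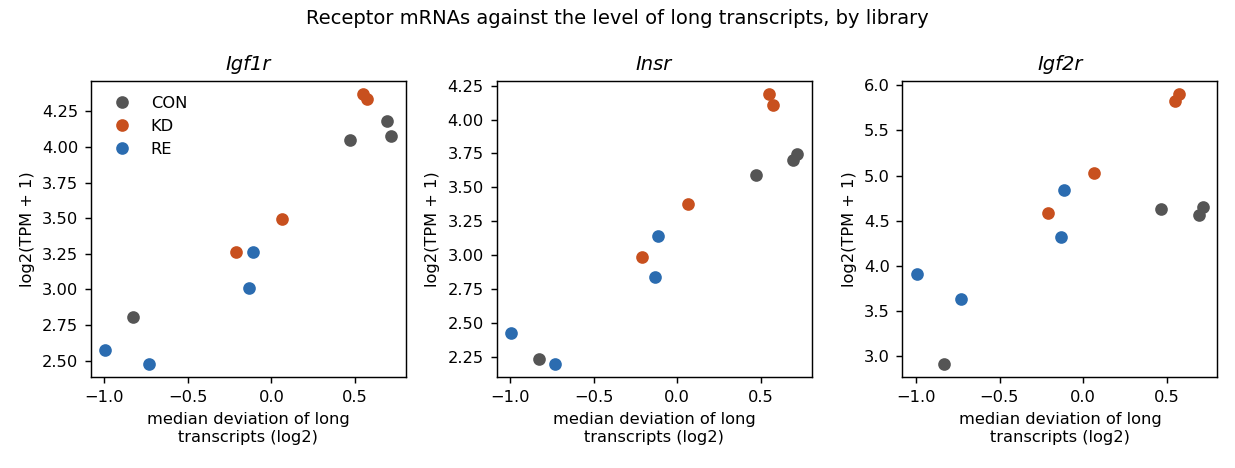
Level of each receptor as log2(TPM + 1) against the median deviation of long transcripts (log2) in the same library, 1 panel per receptor and 1 point per library, coloured by group. Igf1r (r = 0.96) and Insr (r = 0.94) follow the library property closely, and Igf2r (r = 0.76) less so.

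A ratio of 2 receptors within a library divides out a shift that both share, and was computed after these values were seen. Igf2r to Igf1r was 1.52, 1.32, 1.53 and 1.09 in CON, 3.05, 2.83, 2.68 and 3.08 in KD, and 2.50, 3.22, 2.83 and 2.71 in RE. No CON library overlapped KD or RE, and KD and RE overlapped, with means of 1.37 ± 0.205, 2.91 ± 0.191 and 2.81 ± 0.301 (SD, n = 4). Insr to Igf1r was 0.703 ± 0.0669, 0.861 ± 0.0449 and 0.865 ± 0.0544. Here CON was also below KD and RE but only narrowly, with CON 1 at 0.782 and RE 1 at 0.786. The ratio shows unequal change of the receptors and not which of them changed. Igf2r overlaps the noncoding Airn on the opposite strand over 28354 bases, Airn was at 6.93 TPM on average, and the use of strand in counting was not given in the sources used here.

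**Figure D5:**
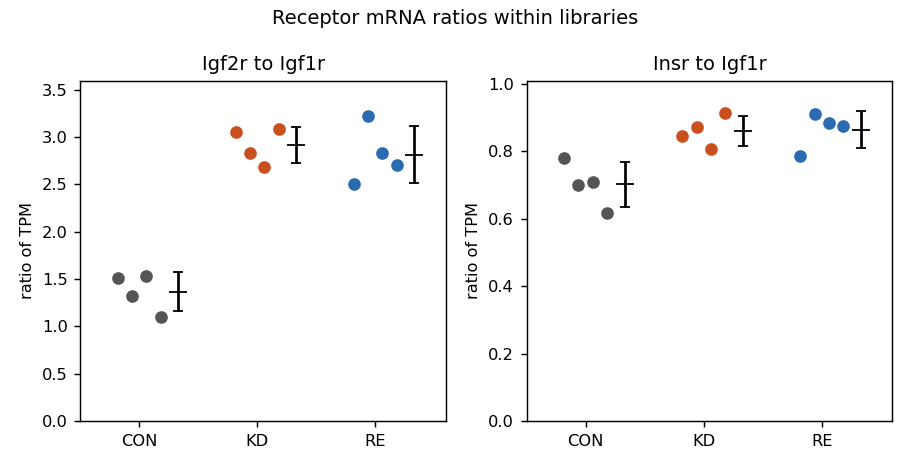
Ratios of Igf2r to Igf1r TPM and of Insr to Igf1r TPM, with points for libraries and bars for the mean ± SD of 4 libraries. In both, the 4 CON libraries sit below all KD and RE libraries, at 1.09 to 1.53 for Igf2r to Igf1r. For Insr to Igf1r the gap is narrow, with CON 1 at 0.782 and RE 1 at 0.786.

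Ligand mRNA was nearly absent. Igf1 (chr10:87858265-87937042, plus strand) never exceeded 0.0703 TPM, Igf2 never exceeded 0.358 TPM, and none of the 5 genes in the list of IGF ligands and the ternary complex subunit reached the filter. In bulk libraries, fewer cells of a type and less RNA per cell cannot be told apart.

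Around the family, 101 other genes in 9 lists of the pathway were followed, and 81 of them were tested. The lists were chosen with earlier results of these data known. KD against CON called 8 higher and 4 lower, where 6.6% and 3.61% of all tested genes were. RE against KD called 2 lower, where 0.858% of all tested genes were. RE against CON called 3 higher and 10 lower, where 2.7% and 3.63% were. Among the regulators of binding protein proteases, Stc1, a secreted inhibitor of PAPP-A, rose in KD from 273 ± 26.5 to 1822 ± 726 TPM (2.63 ± 0.43, adjusted p = 0.0019 in limma), and fell in RE to 451 ± 281 TPM (-2.14 ± 0.43, adjusted p = 0.0397 in limma). The fall was called in 8 of 22 alternatives and kept only without CON 4, KD 3 or RE 2 among the fits that left out a library (highest adjusted p = 0.171). Its relative Stc2 was lower in RE than in CON (-2.12, adjusted p = 0.0106 in limma). The mRNA of PAPP-A itself was near the floor, with Pappa means of 0.085, 0.145 and 0.0227 TPM in CON, KD and RE. Pappa2, in the same list, had means of 0.929, 1.51 and 0.464 TPM, and neither reached the filter. Of 7 tested proteins with an IGFBP domain, Htra3, a secreted serine protease, fell in KD from 12.1 ± 1.014 to 1.18 ± 0.311 TPM (-2.59 ± 0.17) and was at 1.29 ± 0.361 TPM in RE. Wisp2 and Kazald1 rose in KD (1.27 and 0.87), Ctgf and Wisp2 were higher in RE than in CON (1.72 and 1.37), and Wisp1 was lower there (-1.79). Several of these calls depended on single libraries. Wisp2 lost its KD call without CON 1, CON 3 or KD 1 (highest adjusted p = 0.0591) and its RE call without CON 1, CON 2 or CON 3 (up to 0.0609). Ctgf lost its call without CON 1, CON 2, CON 3 or RE 1 (up to 0.0596), Kazald1 without CON 1, CON 2, CON 3, KD 2, KD 3, KD 4, RE 2 or RE 4 (up to 0.126), and Wisp1 without any library but CON 4 and RE 4 (up to 0.147). In KD against CON, median-of-ratios scaling and quantile normalization also ended the calls of Wisp2 (adjusted p = 0.0712 with the first) and Kazald1 (0.118 and 0.197).

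In the receptor signalling chain, 1 of 27 tested genes was called in KD against CON, where 10.2% of all tested genes were. The list's median was -0.01, as for all genes. Eif4ebp1, the translation repressor that mTOR phosphorylates, fell from 318 ± 29.7 to 166 ± 25.3 TPM (-0.95 ± 0.14, adjusted p = 0.0012 in limma). In RE against CON 3 fell, Irs1 (-2.08, adjusted p = 0.0137), Foxo1 (-1.06, adjusted p = 0.0139) and Eif4ebp1 (-0.64, adjusted p = 0.0190), where 3.63% of all tested genes did. The median was -0.74 in the list and -0.27 over all genes. The part of the libraries' long-transcript levels in that list median was not tested. Irs1, the adaptor of both receptors, was at 23.8, 8.81 and 4.57 TPM in CON, KD and RE. Irs1 and Foxo1 lost the call without CON 1, CON 2 or CON 3 (adjusted p up to 0.0544 and 0.0582) or with CON and RE fitted alone (0.0528 and 0.0553), and Eif4ebp1 without CON 2, CON 3 or RE 4 (up to 0.0590). Foxo1, a transcription factor that AKT inhibits, was at -0.19 (adjusted p = 0.556) with the length correction, and Eif4ebp1 at -0.33 (adjusted p = 0.369) with median-of-ratios scaling. In RE against KD no gene of the chain was called, and 12 of 27 were lower at an unadjusted p below 0.05, where 21.6% of all tested genes were. Nor was the part of long-transcript levels in this count tested.

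Among 14 tested receptor inhibitors and feedback genes, 2 rose and 2 fell in KD, where 6.6% and 3.61% of all tested genes did. Grb14, an adaptor that inhibits the insulin receptor kinase, rose from 12.9 ± 2.52 to 45.3 ± 5.50 TPM and was at 21.99 ± 8.65 TPM in RE (KD against CON 1.75 ± 0.26, adjusted p = 0.0009 in limma). Trib2, a pseudokinase, rose from 33.1 to 81.7 TPM (1.28 ± 0.22, adjusted p = 0.0026). Trib3, a pseudokinase that binds AKT, fell from 221 to 88.9 TPM (-1.28 ± 0.31, adjusted p = 0.0199), and Socs2, a feedback inhibitor of growth hormone signalling, from 60.7 to 25.4 TPM (-1.17 ± 0.29, adjusted p = 0.0218). Both were also lower in RE than in CON (-2.08 and -1.76). In KD, the call of Trib3 was lost when any CON library except CON 4, or any KD library except KD 2, was left out (highest adjusted p = 0.0665). That of Socs2 was lost when any CON library except CON 4, or KD 3 or KD 4, was left out (highest adjusted p = 0.0732).

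Of 11 tested FOXO-regulated genes, Sesn1, a stress-induced regulator of mTORC1, rose in KD from 56.2 to 136 TPM (1.24 ± 0.28, adjusted p = 0.0148), a call lost without KD 1 (0.0565) or KD 2 (0.0562). Klf15, a metabolic transcription factor, rose from 4.65 to 11.6 TPM (1.18 ± 0.25, adjusted p = 0.0105). The list's median was 0.46 in KD against CON. Sesn3 was lower in RE than in CON (-2.06, adjusted p = 0.0101). Of 9 tested cell surface and matrix partners, Spp1, which encodes the integrin ligand osteopontin, rose in KD from 4613 to 8265 TPM (0.84 ± 0.14, adjusted p = 0.0022 in limma) and was at 8059 TPM in RE (0.79 against CON, adjusted p = 0.0044). With quantile normalization these were at adjusted p = 0.0715 and 0.346. Fn1, fibronectin, fell from 1858 TPM in KD to 619 TPM in RE (-1.56, adjusted p = 0.0467), called in 9 of 22 alternatives and, among the fits that left out a library, kept only without CON 4, KD 3 or RE 2 (highest adjusted p = 0.193). It was also lower in RE than in CON (-1.66, adjusted p = 0.0091). The 7 mannose 6-phosphate sorting genes, partners of Igf2r in lysosomal traffic, and the 2 tested IGF2 mRNA-binding proteins held no call in any comparison. At an unadjusted p below 0.05, 2 of the sorting genes and 1 of the mRNA-binding proteins were higher in KD than in CON, where 13.6% of all tested genes were, and 1 sorting gene was lower in RE than in CON.

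Some markers of other cell types moved beside these genes, and others did not. In KD against CON, 4 of 5 tested skeletal muscle markers fell, where 3.61% of all tested genes did. The summed level of all 8 was 362 to 653 TPM in CON, 293 to 389 in KD and 330 to 549 in RE. Most of that sum was Des, at means of 420, 325 and 400 TPM, the tested marker that was not called in KD (-0.32, adjusted p = 0.453 in limma). Myod1, the defining transcription factor of skeletal muscle, was at 6.35 TPM in CON and 0.03 TPM in KD and in RE, low in the same groups as Igfbp2. Myod1 and Acta1 passed the filter through CON alone. Of 6 tested fibroblast markers, 2 fell from KD to RE, beside Igfbp4 and Fn1, where 0.858% of all tested genes fell. The sum of all 8 fibroblast markers was 2752 to 4265 TPM in CON, 2953 to 4252 in KD and 1560 to 2525 in RE, with Lum and Tcf21 listed at 0 in all libraries. In KD against CON 2 of the fibroblast markers fell, and in RE against CON 4 did, where 3.61% and 3.63% of all tested genes did. Dcn, which encodes the matrix proteoglycan decorin, was at 41.8 TPM in CON, 5.05 in KD and 3.20 in RE, and Col1a1 was at 97.1, 57.9 and 27.4 TPM. The fall in KD was not shared by the rest of the list, whose median in KD against CON was 0.08. Pdgfra (0.70), Postn (0.48), Col1a2 (0.19) and Col3a1 (-0.02) were not called there. Smooth muscle markers summed to 566 to 1151 TPM in CON, 757 to 1192 in KD and 337 to 1550 in RE. None of the 4 tested smooth muscle markers was called in any comparison. Over all tested genes 10.2% were called in KD against CON, 1.04% in RE against KD and 6.33% in RE against CON. Endothelial markers summed to at most 1.13 TPM and macrophage markers to at most 13.6 TPM. Of 4 tested atrial markers, only Nkx2-5 was called. It was higher in KD (1.10, adjusted p = 0.0229) and in RE (1.63, adjusted p = 0.0031, both in limma) than in CON. The part of these cell types in the IGF gene levels was not tested.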

How the data were processed

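RNA of 12 HL-1 libraries was sequenced, and the authors deposited 1 table of TPM values per gene symbol. Per the submitters' processing notes, reads were processed with Trim Galore 0.6.6, TopHat2 2.1.1 and Cufflinks 2.2.1 on mm10; the step that gave TPM and the use of strand were not given in the sources used here. TPM columns sum to the same total in each library, so depth is unknown and no counting interval is given. Columns named WT were taken as CON by the genotype label, and their numbers are not tied to single samples. Log2(TPM + 1) of the 11774 genes with a mean of at least 1 TPM was fitted over all 12 libraries with limma 3.58.1 (R 4.3.3, intensity trend), with Benjamini-Hochberg adjustment over all tested genes and a threshold of 0.05. The script was tested on simulated data. Single values were also compared with 2-sided exact permutation tests. Length came from GENCODE for 96.3% of tested genes, and the correction removes a loess trend (span 0.5) of each library's deviations on the length of the longest transcript. The members and lists were chosen with earlier results of these data known. Named are the 10 members, up to 4 called genes per list and comparison by size of change, and the 5 genes most correlated with Igfbp5 and with Igfbp2. Of the genes so named, 1 is left out of the text. Alternatives were a pseudocount of 0.1, no filter and a filter of 5 TPM, scaling by median of ratios or by quantiles, the length correction, the 2 compared groups alone, the replicate number as a block, leaving out each library, and leaving out CON 4, RE 1 and RE 3 together; leaving out CON 4 with the length correction was chosen after seeing the data.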

Additional observations from a re-analysis of the deposited data

Results flagged for a closer look

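In groups of 4 libraries, a value was marked where its gap to the nearest other library took most of the group's range. This happened 7 times in 28 groups, where chance marks about 1 in 20 groups, and 5 of the 7 were in CON 4. That rate holds for independent groups of normally distributed values with no ties. The distribution of the TPM values was not tested, and Igf1r and Insr moved together (r = 0.98). CON 4 had the highest CON level of Igfbp2 (81.3 TPM) and the lowest CON levels of Igfbp5 (158 TPM), Igf1r (5.99 TPM), Igf2r (6.55 TPM) and Insr (3.71 TPM). KD 4 was the only KD library with Igfbp2 above 0, at 0.189 TPM, and with the other 3 tied at 0 it meets the criterion by construction. KD 3 had the highest KD level of Igfbp6, 1361 TPM. CON 4 also had the lowest long-transcript median of CON, -0.83 against 0.47 to 0.72, and its part in the receptor levels was not tested.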

How the results depend on the processing

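The calls of Igfbp5 and Igfbp4 in RE against KD did not hold in all alternatives. Counts of all called genes moved most. KD against CON called 1904 genes with quantile normalization, 2598 with the length correction, 4636 without CON 4, RE 1 and RE 3, and 3910 without CON 4 and with the length correction. RE against KD called 78 with median-of-ratios scaling, 224 with the length correction, 49 with the 2 groups alone, 50 without the 3 libraries and 1165 without CON 4 and with the length correction. RE against CON called 452 with a filter of 5 TPM, 1178 with quantile normalization, 1520 with the length correction, 409 with the 2 groups alone, 3781 without the 3 libraries and 4414 without CON 4 and with the length correction. Median-of-ratios scaling split the calls of RE against KD into 32 higher and 46 lower, against 22 and 101, and quantile normalization into 67 and 97. In RE against CON the splits were 595 and 500, and 672 and 506, against 318 and 427, and in KD against CON 888 and 682, and 1067 and 837, against 777 and 425.

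Of the IGF genes, 2 were called higher in KD than in CON with quantile normalization, with the length correction and without the 3 libraries, and 3 without CON 4 and with the length correction. Of all tested genes, these settings called 1904, 2598, 4636 and 3910 in either direction. That comparison chose the family, so these counts support nothing. In RE against KD 0 were called lower with median-of-ratios scaling. In RE against CON 1 was called higher with the length correction (with and without CON 4) and without the 3 libraries. The last setting called 4 lower, with Igfbp5 and Igfbp2, which chose the family, among them. Of all tested genes, the settings called 1520, 4414 and 3781 in either direction. In RE against CON, Igf2r changed sign to 0.29 with median-of-ratios scaling, 0.38 with quantile normalization and 0.87 with the length correction, also 0.87 when CON 4 was left out too. With that correction Igf1r was at 0.064, Insr at 0.25 and Igfbp6 at -0.0056, and without CON 4 as well Igf1r was at 0.20, Insr at 0.32 and Foxo1 at 0.029. In RE against KD Igfbp6 was at -0.045 with the correction, with or without CON 4, and at -0.00038 without the 3 libraries. The cause was not tested.

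Leaving out 1 library at a time gave 744 (without KD 2) to 2412 (without CON 4) calls in KD against CON, 13 (without KD 2) to 2791 (without CON 4) in RE against KD and 417 (without CON 3) to 6219 (without CON 4) in RE against CON. Among the IGF genes it gave 0 to 1 higher and 0 to 5 lower in RE against KD, and 0 to 1 higher and 2 to 5 lower in RE against CON, with the high counts of lower genes without CON 4. Igf2r in RE against CON ranged from -0.44 to 0.17.

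Whether replicate numbers pair KD with RE is not known. Same-numbered libraries had correlations of -0.55, 0.65, 0.24 and -0.25 of their deviations. KD 2 correlated best with RE 2, but not every KD library correlated best with its own number. A fit of KD and RE alone with the replicate number as a block called 2021 genes, against 49 in these 2 groups without the block, and 4 IGF genes lower, Igfbp4, Igf1r, Igf2r and Insr. Depth is unknown, so levels near 0, such as Igfbp2 in KD and RE, have no stated precision.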
